A study of Mus musculus with 20 samples.

Results

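Intermediate filament, nesprin, SUN and lamin genes form the chain that ties the cytoskeleton to the nucleus, and 10 of them were followed across 3 cell populations of mouse leg muscle. The genes were taken by symbol from the 24393 genes of the count table: Des, Vim, Nes and Synm for intermediate filament proteins, Syne1 and Syne2 for nesprins, Sun1 and Sun2 for SUN proteins, and Lmna and Lmnb1 for lamins. All 10 passed the filter on low counts. The series title asks which cell types of fibrotic muscle express extracellular matrix. RNA was read from cells of 3 leg muscles (gastrocnemius, tibialis anterior, quadriceps) taken from DKO and from WT mice. FAP and Misc had 4 libraries of each genotype and SMP had 2, which makes 6 groups. FAP and SMP are usual short names for fibro/adipogenic progenitors and skeletal muscle progenitors, and the labels do not spell out any of the 3 population names. The design text of the series lists a population called FB where the labels have Misc, and no label ties one to the other. The labels do not name the genes behind DKO (double knockout). From knowledge of the study, DKO is taken here to be loss of desmin (Des) and nesprin 1 (Syne1), and WT to be wild type. Age, sex, strain background, the deleted parts of the genes, how cells were separated and whether animals were pooled could not be read from the labels or the design text. The design text calls the libraries biological replicates without saying that each came from its own animal, so p-values measure the spread between libraries, which may be technical in part.

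As background, desmin is the main intermediate filament protein of muscle cells, vimentin (Vim) that of mesenchymal cells, and nestin (Nes) one of progenitor cells. Synemin (Synm) is a large intermediate filament protein that joins filaments built from desmin or vimentin. Nesprins are giant proteins of the outer nuclear membrane whose far ends reach actin and other parts of the cytoskeleton. Their near ends meet SUN proteins in the space between the nuclear membranes, and SUN proteins bind the lamina under the inner membrane. The lamina is made of A-type lamins from Lmna and B-type lamins such as lamin B1 from Lmnb1. In muscle, loss of desmin or of nesprin 1 is known to disturb the placement of nuclei in fibres.

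Library totals ranged from 5826000 to 17730111 counts, and the SMP DKO libraries, at 6124928 and 5826000 counts, were the shallowest. Levels are given as CPM, that is, counts scaled to 1e+06 per library after TMM scaling. Defining markers fitted the names FAP and SMP: Pdgfra ran from 935 to 1192 CPM in FAP DKO and from 1092 to 1343 CPM in FAP WT, and Pax7 was 125 and 100.2 CPM in SMP DKO against 262 and 271 CPM in SMP WT. Misc carried tendon cell markers, with Tnmd at 1744 to 2138 CPM in Misc DKO and 1689 to 2532 CPM in Misc WT, and only 3.72 to 7.96 CPM of Ly6a, a FAP marker, in Misc DKO and 2.61 to 7.54 CPM in Misc WT. Pdgfra, however, was at 291 to 399.7 CPM in Misc DKO and 411 to 485 CPM in Misc WT, under its FAP level and far above its level in SMP WT. Library 2 of SMP DKO stood apart from the other SMP libraries. It held 112 CPM of Pdgfra, against 10.1 CPM in SMP DKO library 1 and 9.32 and 10.4 CPM in SMP WT, and 14.4 CPM of Ptprc, against 0.132 CPM in SMP DKO library 1 and 0.162 and 0 CPM in SMP WT. Where a call in SMP depended on this library, or a called value moved by over 1.5 times without it, both values are given. A fit without 1 SMP library leaves a lone library in that group, which is assumed to vary like the other groups. An adjusted p from such a fit does not measure the spread within that group. With 2 SMP libraries a genotype, lack of overlap between SMP groups also says little. These are bulk libraries, in which fewer cells of a type and less RNA per cell cannot be told apart.

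Promoter sequence is shown for Des and Syne1, the presumed targets, for Syne2, the nearest relative of Syne1, and for Vim, which changed in the other direction from Des. Each line holds the 250 bases before the annotated start in RefSeq, build GRCm38.p6, read 5′ to 3′ on the gene's own strand, with the motif CAGCTG in capitals. CAGCTG is one form of the E-box that myogenic factors such as MyoD are known to bind.
Des, chr1:75360042-75360291, plus strand: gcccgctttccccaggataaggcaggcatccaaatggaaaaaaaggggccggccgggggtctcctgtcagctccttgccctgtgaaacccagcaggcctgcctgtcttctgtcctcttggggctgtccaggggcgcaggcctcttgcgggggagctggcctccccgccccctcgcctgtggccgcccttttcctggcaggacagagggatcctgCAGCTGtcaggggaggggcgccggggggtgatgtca
Syne1, chr10:5550693-5550942, minus strand: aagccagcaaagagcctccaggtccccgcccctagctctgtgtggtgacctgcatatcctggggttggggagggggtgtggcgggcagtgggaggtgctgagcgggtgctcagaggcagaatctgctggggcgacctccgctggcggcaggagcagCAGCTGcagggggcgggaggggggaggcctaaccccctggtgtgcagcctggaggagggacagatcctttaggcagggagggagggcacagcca
Syne2, chr12:75818068-75818317, plus strand: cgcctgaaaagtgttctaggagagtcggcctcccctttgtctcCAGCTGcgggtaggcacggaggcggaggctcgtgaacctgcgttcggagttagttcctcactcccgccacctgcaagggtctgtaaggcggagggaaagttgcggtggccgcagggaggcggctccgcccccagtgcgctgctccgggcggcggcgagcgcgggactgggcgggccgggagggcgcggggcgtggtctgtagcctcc
Vim, chr2:13574061-13574310, plus strand: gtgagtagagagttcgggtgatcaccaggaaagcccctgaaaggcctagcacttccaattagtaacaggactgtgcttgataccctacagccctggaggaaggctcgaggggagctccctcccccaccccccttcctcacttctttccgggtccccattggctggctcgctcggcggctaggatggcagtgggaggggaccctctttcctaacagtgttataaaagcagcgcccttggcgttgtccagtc
The palindrome CAGCTG, whose search covers both strands at once, stood once in the Des window, with its first base 36 bases before the start. It stood once in the Syne1 window, 94 bases before the start, and once in the Syne2 window, 207 bases before the start. No CAGCTG stood in the windows of Vim, Nes, Synm, Sun1, Sun2 or Lmna, nor in 2 further Syne1 windows at starts inside the gene. The promoter of Lmnb1 is not reported here. Of 32851 promoter windows of this length, 4271 (13%) held it, and these are matches of letters only.

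Across all 20 libraries the 10 genes differed widely in how far their levels ranged. Des spanned 134-fold between its highest and its lowest library, Nes 24.7-fold, Lmnb1 9.84-fold, Syne2 7.64-fold and Synm 6.34-fold. Syne1 and Vim spanned 3.62-fold and 3.52-fold, Lmna and Sun2 2.13-fold and 2.12-fold, and Sun1 only 1.28-fold. Per kilobase of the longest coding transcript, which allows levels of different genes to be set side by side, Vim was the highest of the 10 in every group, at 1194 ± 84.3 CPM per kb in FAP DKO and 1085 ± 49.5 CPM per kb in FAP WT (SD, n = 4 each). Lmna came next in every group, at 121 ± 15.2 CPM per kb in FAP DKO and 108 ± 5.11 CPM per kb in FAP WT. Des differed most in rank. It was at 21.4 ± 4.94 CPM per kb in SMP DKO and 58.6 ± 3.00 CPM per kb in SMP WT (SD, n = 2 each), the third highest of the 10 in SMP WT, but at 0.547 ± 0.139 CPM per kb in Misc DKO and 1.28 ± 0.396 CPM per kb in Misc WT (SD, n = 4 each). Nesprin transcripts are known to come in many lengths, so values per kilobase of Syne1 and Syne2 rest on the full-length form.

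**Figure D1:**
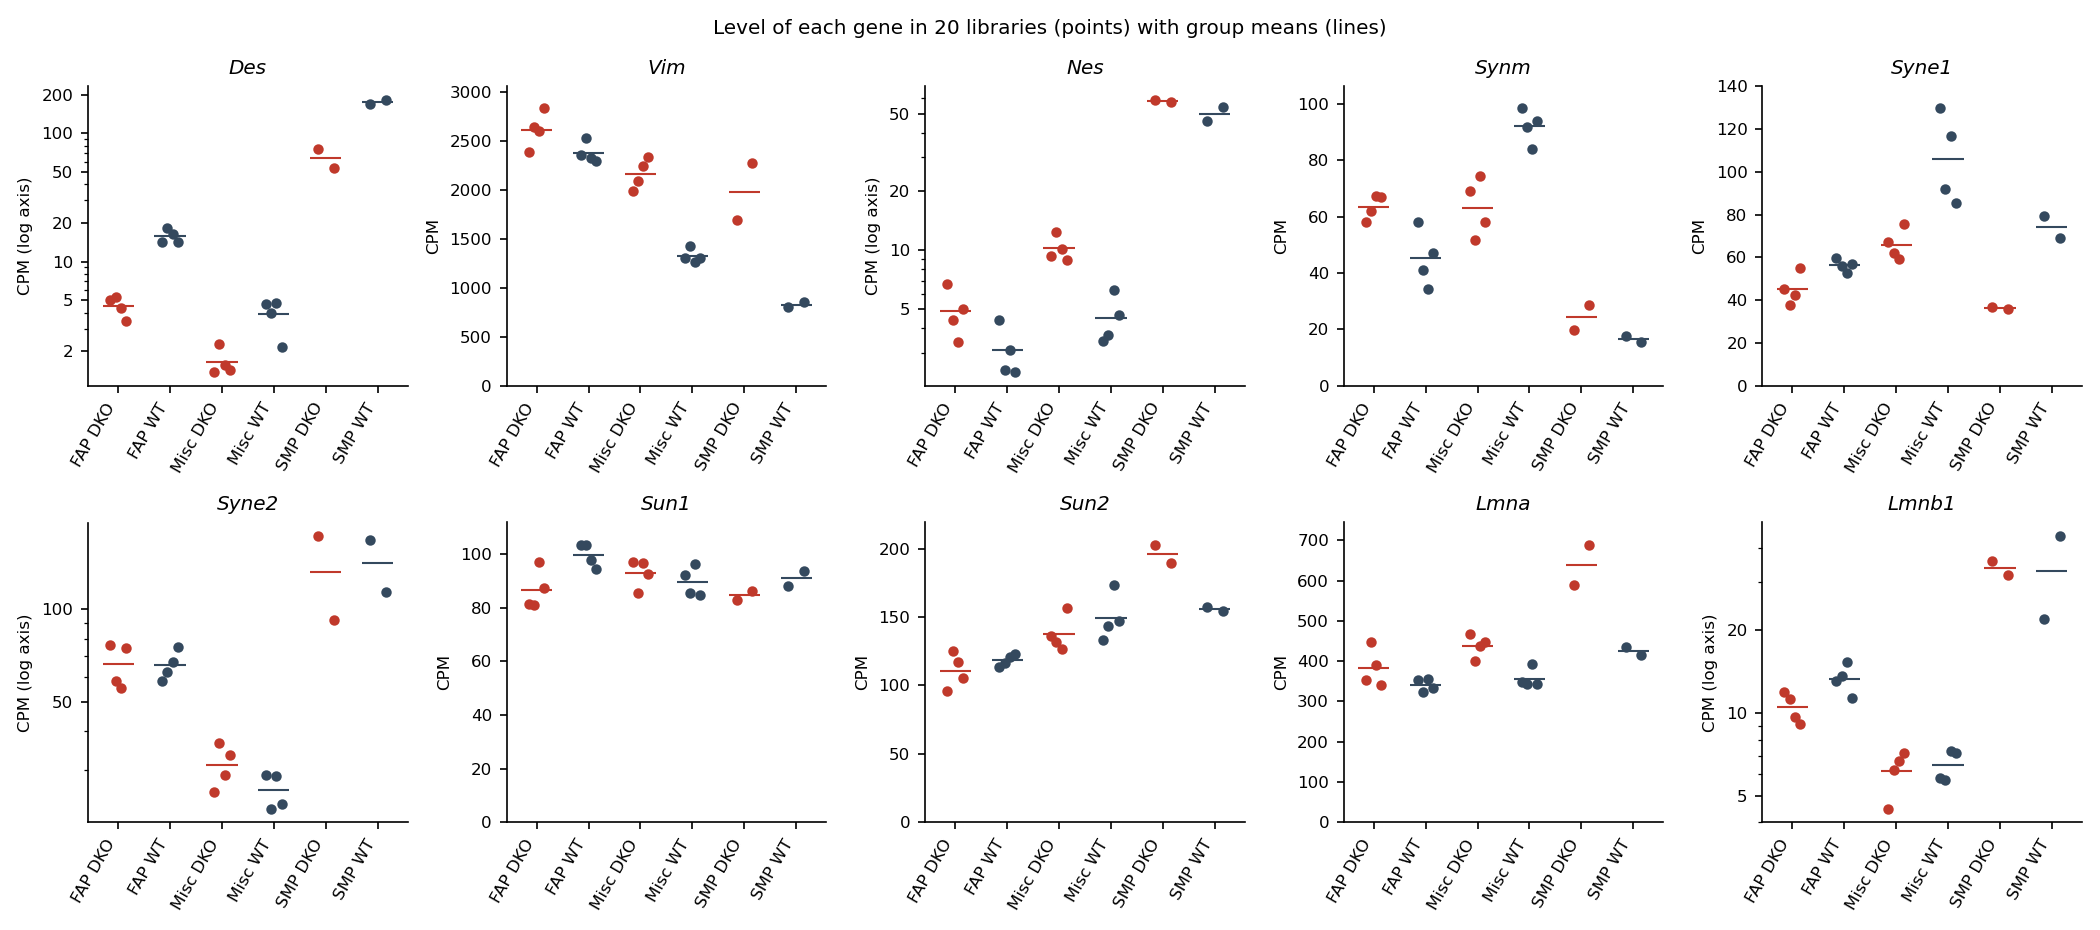
Level of each of the 10 genes in CPM on the vertical axis for the 6 groups on the horizontal axis, with 1 point per library (red DKO, blue WT) and a line at the group mean. Des and Nes lie far higher in SMP than elsewhere, Des lies lower in DKO than in WT in each population apart from 1 overlapping Misc WT library at 2.16 CPM, and Sun1 stays between 81.0 and 103 CPM throughout.

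Des (Entrez 13346, chromosome 1, 75360292 to 75368579 in mm10, plus strand) was lower in DKO than in WT in all 3 populations, yet reads of it were present in every DKO library. In FAP it was at 5.04, 5.33, 4.36 and 3.43 CPM in DKO and at 14.2, 18.3, 16.5 and 14.3 CPM in WT, from 34 to 54 reads and 150 to 198 reads per library, and the groups did not overlap. The log2 change was −1.81 ± 0.18 (SE; adjusted p = 2.7e-07, edgeR quasi-likelihood test, Benjamini-Hochberg adjusted over 14179 genes, as for every adjusted p unless another test is named), or 3.52-fold lower in DKO. In Misc, where the gene was scarce, it was at 1.37, 2.27, 1.56 and 1.42 CPM in DKO and at 4.66, 3.94, 4.74 and 2.16 CPM in WT, with 11 to 19 reads per DKO library. The lowest WT library lay under the highest DKO library, and the log2 change was −1.25 ± 0.25 (adjusted p = 0.00094). In SMP, 75.4 and 54.2 CPM in DKO stood against 171 and 184 CPM in WT without overlap, a log2 change of −1.45 ± 0.19 (adjusted p = 1.6e-05). Without library 2 the SMP value was −1.24. The DKO changes of Des in the 3 populations did not differ from each other beyond their errors, with interaction estimates of −0.56 (95% interval −1.20 to 0.08) for FAP minus Misc, −0.36 (−0.88 to 0.15) for FAP minus SMP and 0.20 (−0.46 to 0.86) for Misc minus SMP. Smooth muscle and pericyte cells also express desmin. The summed level of their 10 markers was 99.6 to 176 CPM in FAP DKO and 142 to 252 CPM in FAP WT, 129.8 to 212 CPM in Misc DKO and 195 to 263 CPM in Misc WT, and 1279 and 1465 CPM in SMP DKO and 1679 and 1638 CPM in SMP WT. In each population 1 of the 10 was called, lower in DKO, and the part of these cells in the Des result was not tested.

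Syne1 (Entrez 64009, chromosome 10, 5020192 to 5550692, minus strand) fell in DKO in Misc and SMP, and its change in FAP did not pass the threshold. Misc libraries held 67.1, 62.1, 59.2 and 75.5 CPM in DKO and 129.8, 91.8, 117 and 85.5 CPM in WT. The Misc groups did not overlap, and the log2 change was −0.69 ± 0.12 (adjusted p = 0.00028). In SMP it was at 37.0 and 35.9 CPM in DKO and at 79.5 and 69.2 CPM in WT, which did not overlap, and the change was −1.03 ± 0.18 (adjusted p = 0.00032), 2.04-fold lower in DKO. In FAP, 45.4, 37.8, 42.7 and 55.3 CPM in DKO overlapped 59.8, 55.8, 52.7 and 57.1 CPM in WT, at −0.31 ± 0.12 (adjusted p = 0.11). Without FAP DKO library 4 the FAP value was −0.42 (adjusted p = 0.047).

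Transcript length moved with the DKO changes, which bears on so long a gene as Syne1. In SMP the median log2 change of the 341 tested genes whose longest coding transcript is 10 kb or more was −0.32, against 0.25 for genes under 2 kb. The same medians were −0.12 and 0.10 in Misc and 0.00 and 0.02 in FAP. With an offset for transcript length in the fit, Syne1 in SMP was at −0.42 (adjusted p = 0.072) and no longer passed, in Misc it still passed, and in FAP it reached −0.35 (adjusted p = 0.048). Only 13 tested genes have a transcript of 20 kb or more, so the offset at 27908 bases of Syne1 rests on few genes. Counts over whole genes cannot show which part of Des or Syne1 was deleted, and remaining reads do not say whether protein was made.

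Vim, the vimentin gene (chromosome 2, 13574311 to 13582826), was higher in DKO in Misc and SMP. In SMP it reached 1693 and 2274 CPM in DKO, against 805 and 856 CPM in WT, so that every DKO library lay above every WT library. The log2 change was 1.26 ± 0.15 (adjusted p = 4e-06), or 2.39-fold. Library 2, the higher of the pair, was the one that stood apart by its Pdgfra and Ptprc levels, and without it the value was 1.02. The 6 FAP markers summed to 765 CPM in SMP DKO library 1 and 3199.8 CPM in library 2, against 1419.8 and 1624 CPM in SMP WT, and 3 of the 6 were called higher. Endothelial marker sums were 111 and 584 CPM in SMP DKO libraries 1 and 2, and 274 and 211 CPM in SMP WT. Immune marker sums were 27.8 and 317 CPM in SMP DKO, and 24.5 and 18.3 CPM in SMP WT. In SMP DKO the 16 muscle fibre markers summed to 350 and 760 CPM, against 132 and 163 in WT, with 12 called higher. The 12 cell cycle genes summed to 460 and 330 CPM, against 106 and 282, with 6 called higher. The 6 tendon cell markers summed to 2603 and 5185 CPM, against 4515 and 4036, with 4 called lower. Of 11 satellite cell and myogenic markers 1 was called higher and 2 lower, and Myod1 was at 338 and 353 CPM, against 132 and 140. The part of all these markers in the Des, Vim and Lmna results in SMP was not tested. Misc levels were 1988, 2096, 2245 and 2343 CPM in DKO and 1303, 1424, 1268 and 1302 CPM in WT, again without overlap, at 0.71 ± 0.10 (adjusted p = 2.8e-05). In FAP, 2387, 2644, 2602 and 2837 CPM in DKO overlapped 2359, 2537, 2324.5 and 2294 CPM in WT, and the change of 0.14 ± 0.10 did not pass (adjusted p = 0.44). The difference between the FAP and the SMP change was itself called, at −1.12 ± 0.18 (adjusted p = 3e-04).

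Nes, the nestin gene (chromosome 3, 87971093 to 87980451), changed in Misc. There it was at 9.33, 12.5, 10.2 and 8.94 CPM in DKO and at 3.42, 3.71, 6.28 and 4.65 CPM in WT, with no overlap. The log2 change was 1.20 ± 0.21 (adjusted p = 2e-04), or 2.30-fold higher in DKO. In FAP it was scarcer still, at 6.72, 4.39, 3.39 and 5.0 CPM in DKO and 4.40, 2.43, 3.09 and 2.38 CPM in WT, and its change of 0.65 ± 0.23 did not pass (adjusted p = 0.075). It passed without FAP DKO library 3, at 0.80 (adjusted p = 0.032), without FAP WT library 1, at 0.89 (adjusted p = 0.027), and by the DESeq2 Wald test at 0.66 (adjusted p = 0.049). SMP held by far the most, 58.9 and 57.0 CPM in DKO and 46.0 and 53.7 CPM in WT, and the change there was 0.22 (95% interval −0.24 to 0.67). Beside the Misc result, the summed level of 12 cell cycle genes was 22.5 to 33.5 CPM in Misc DKO and 7.65 to 11.0 CPM in Misc WT, and 6 of the 12 were called higher. The 9 endothelial markers, whose cells also express nestin, summed to 47.3 to 73.7 CPM in Misc DKO and 88.1 to 121 CPM in Misc WT, and 1 was called, lower in DKO. Sums of the 16 muscle fibre markers were 62.5 to 113 CPM in Misc DKO and 41.7 to 52.7 CPM in Misc WT, with 6 called higher. The part of these markers in the Nes and Vim results was not tested.

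Synm, the synemin gene (chromosome 7, 67730161 to 67759742), moved in opposite directions in FAP and Misc. Misc libraries held 68.9, 51.6, 74.3 and 58.0 CPM in DKO and 98.4, 91.7, 84.0 and 93.8 CPM in WT. All 4 DKO libraries lay under all 4 WT libraries, and the log2 change was −0.54 ± 0.13 (adjusted p = 0.0061). The Misc value was −0.43 (adjusted p = 0.07) when replicate block and length offset were combined. In FAP, 58.2, 61.9, 67.2 and 66.8 CPM in DKO stood against 58.3, 41.0, 34.5 and 46.9 CPM in WT. Only WT library 1 reached into the DKO range, and the change was 0.49 ± 0.14 (adjusted p = 0.021). The FAP call was lost without FAP DKO library 3 (adjusted p = 0.054), FAP DKO library 4 (0.065), FAP WT library 2 (0.072) or FAP WT library 3 (0.084), at log2 values between 0.38 and 0.47. In SMP it was at 19.8 and 28.7 CPM in DKO and 17.6 and 15.5 CPM in WT, at 0.55 ± 0.21 (adjusted p = 0.069). SMP DKO library 2 carried most of that difference. Without library 2 the SMP value was 0.24, and without SMP DKO library 1 it was 0.78. With both libraries it passed with the length offset, at 0.78 (adjusted p = 0.022), with block and offset together, at 0.79 (adjusted p = 0.036), and by the DESeq2 Wald test, at 0.57 (adjusted p = 0.048).

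The other nesprin and both SUN genes showed no called change between DKO and WT in any population. Syne2 (chromosome 12, 75818318 to 76110928), which encodes nesprin 2, was at 76.2, 58.4, 55.2 and 74.8 CPM in FAP DKO and 58.2, 62.5, 67.0 and 75.2 CPM in FAP WT, at 0.01 (95% interval −0.33 to 0.36). Misc levels were 25.4, 36.8, 29.0 and 33.7 CPM in DKO and 28.9, 22.5, 28.6 and 23.3 CPM in WT, at 0.27 (−0.10 to 0.64). With the length offset the Misc value was 0.44 (adjusted p = 0.011) and passed. In SMP, 172 and 91.6 CPM in DKO and 167 and 113 CPM in WT overlapped, and the libraries of each group lay far apart. The SMP value of −0.09 turned to 0.28 without SMP DKO library 2 and to 0.41 (adjusted p = 0.056) with the length offset. Sun1 (chromosome 5, 139200564 to 139249839) had its largest log2 change in FAP, at −0.20 (−0.36 to −0.04) with 81.0 to 97.0 CPM in DKO and 94.3 to 103 CPM in WT, which did not pass after adjustment. Sun2 (chromosome 15, 79724068 to 79742536) was at 203 and 189.8 CPM in SMP DKO and 157 and 154 CPM in SMP WT. These groups did not overlap, which says little with 2 libraries each. Nes (adjusted p = 0.54) and Sun1 (adjusted p = 0.55) did not overlap in SMP either. The Sun2 change of 0.34 ± 0.14 did not pass (adjusted p = 0.078). It passed by the DESeq2 Wald test, at 0.36 (adjusted p = 0.047), and with the length offset, at 0.42 (adjusted p = 0.028).

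Lmna (chromosome 3, 88481148 to 88509932), which encodes lamins A and C, was higher in DKO in SMP and Misc. SMP held 588 and 689 CPM in DKO and 435 and 416 CPM in WT, with no overlap, at 0.59 ± 0.14 (adjusted p = 0.0042). That value did not pass when only the SMP libraries entered the fit (adjusted p = 0.058), and it was 0.46 without SMP DKO library 2. Misc levels were 467, 401, 438 and 447 CPM in DKO and 349, 343, 393 and 343 CPM in WT, without overlap, at 0.30 ± 0.10 (adjusted p = 0.035). The Misc call was lost without Misc DKO library 1 (adjusted p = 0.11), library 3 (0.062) or library 4 (0.11), without Misc WT library 1 (0.12), library 2 (0.12) or library 4 (0.13), and with no filter on low counts (0.082), at log2 values of 0.24 to 0.29. In FAP, 352, 448, 390 and 342 CPM in DKO overlapped 354, 323, 357 and 334 CPM in WT, at 0.16 (95% interval −0.03 to 0.35). Lmnb1, for lamin B1, changed in none of the 3. It was at 11.9, 11.3, 9.68 and 9.11 CPM in FAP DKO and 13.0, 13.7, 15.4 and 11.3 CPM in FAP WT, at −0.35 ± 0.18 (adjusted p = 0.24), and 1 library of each group lay in the range of the other. In SMP it was at 35.8 and 31.9 CPM in DKO and at 22.0 and 44.1 CPM in WT, so the WT libraries enclosed the DKO ones, and in Misc all 8 libraries lay between 4.48 and 7.28 CPM.

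Counted over the 10 genes, DKO against WT gave 1 higher (Synm) and 1 lower (Des) in FAP, where 10.7% of all genes tested were called. In Misc 3 were higher (Vim, Nes, Lmna) and 3 lower (Des, Synm, Syne1), where 18.7% of all genes were called. In SMP 2 were higher (Vim, Lmna) and 2 lower (Des, Syne1), where 23.0% were called. The median log2 change of the 10 was −0.05 in FAP, −0.01 in Misc and 0.13 in SMP, against −0.01, 0.01 and 0.01 over all genes tested in the same order. The genes thus did not shift one way as a group, and 2 of the 6 called in Misc and 2 of the 4 called in SMP are the presumed targets.

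**Figure D2:**
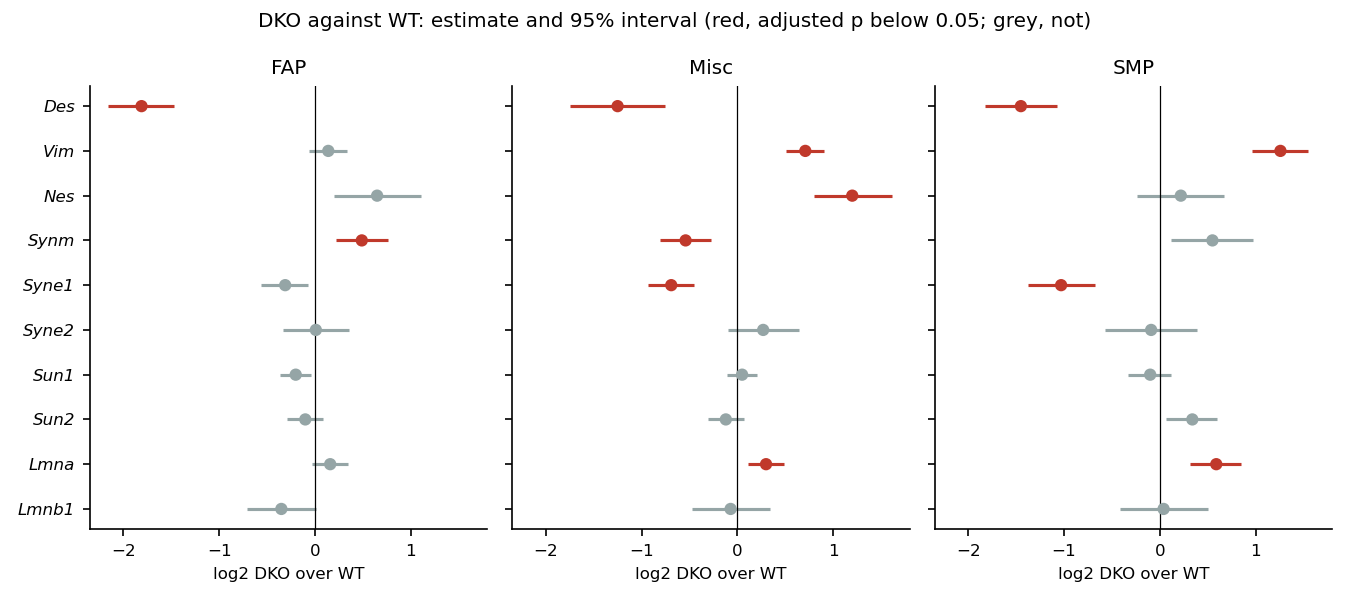
Log2 change of each gene in DKO over WT on the horizontal axis in FAP, Misc and SMP, with points at the edgeR estimate and bars for its 95% interval, red where the adjusted p was below 0.05 and grey elsewhere. Des lies left of 0 in all 3 panels, Vim right of 0 in Misc and SMP, and Synm right of 0 in FAP and left of 0 in Misc.

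The DKO change differed between populations for 4 of the genes. Between FAP and Misc, 1 gene was higher and 1 lower, where 2.79% of all genes were called. Synm differed by 1.03 ± 0.19 (adjusted p = 0.0029), a call kept in every alternative run. Vim differed by −0.57 ± 0.15 (adjusted p = 0.031), a call lost without any 1 of 12 of the 16 libraries (adjusted p up to 0.11) and kept only without FAP DKO library 4, FAP WT library 4, Misc DKO library 1 or Misc DKO library 2. Between FAP and SMP, Vim differed by −1.12 and Syne1 by 0.72 ± 0.22 (adjusted p = 0.037), 1 higher and 1 lower, where 10.3% of all genes were called. The Syne1 difference was 0.07 (adjusted p = 0.87) with the length offset and 0.58 (adjusted p = 0.058) with genotype and replicate number together as a block. It did not pass without FAP DKO library 4 (adjusted p = 0.078), FAP WT library 2 (0.056), FAP WT library 3 (0.064), SMP DKO library 1 (0.058), SMP DKO library 2 (0.1) or SMP WT library 1 (0.15), at log2 values between 0.61 and 0.76. Between Misc and SMP, Nes differed by 0.99 ± 0.31 (adjusted p = 0.049) and Synm by −1.09 ± 0.25 (adjusted p = 0.0083), again 1 higher and 1 lower, where 8.94% of all genes were called. The Nes call was lost with DESeq2 size factors (adjusted p = 0.055), a replicate block (0.068), the length offset (0.066) or block and offset together (0.09), and without any 1 of the 12 libraries save Misc WT library 3 (adjusted p up to 0.15). The Synm call was lost without SMP DKO library 2, at −0.79 (adjusted p = 0.09), or SMP WT library 2, at −0.98 (adjusted p = 0.054). Vim between Misc and SMP was at −0.55 ± 0.18 (adjusted p = 0.059), and passed at −0.65 (adjusted p = 0.026) with genotype and replicate number as the block. By the DESeq2 Wald test it passed at −0.57 (adjusted p = 0.0051). It also passed with block and offset together, at −0.53 (adjusted p = 0.044), and without Misc DKO library 4, at −0.61 (adjusted p = 0.047). It was −0.73 without SMP DKO library 1 and −0.31 without SMP DKO library 2.

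Ratios of reads within a library do not depend on its depth or scaling. Nesprin 1 to nesprin 2, Syne1 to Syne2, was 1.69 to 2.64 in Misc DKO against 3.67 to 4.49 in Misc WT, 0.596 to 0.774 in FAP DKO against 0.759 to 1.03 in FAP WT, and 0.216 and 0.392 in SMP DKO against 0.476 and 0.613 in SMP WT. In Misc and SMP the DKO and WT ratios did not overlap, and in FAP they overlapped in 1 library of each. Misc was thus the only population of the 3 with more Syne1 than Syne2 reads in every library. Des to Vim was 0.00121 to 0.00211 in FAP DKO against 0.00602 to 0.00723 in FAP WT, 0.000608 to 0.00109 in Misc DKO against 0.00166 to 0.00373 in Misc WT, and 0.0445 and 0.0238 in SMP DKO against 0.212 and 0.215 in SMP WT. That ratio separated DKO from WT in each population. In Misc Des alone overlapped and Vim alone did not, so the ratio there adds nothing on Des. Lmna to Lmnb1 was 29.5 to 40.3 in FAP DKO against 23.2 to 29.5 in FAP WT, 62.7 to 104 in Misc DKO against 47.9 to 60.5 in Misc WT, and 16.4 and 21.6 in SMP DKO against 19.8 and 9.43 in SMP WT. Sun1 to Sun2 stayed under 1 in all 20 libraries and was lowest in SMP DKO, at 0.409 and 0.455, against 0.561 and 0.608 in SMP WT. A ratio shows unequal change of its 2 genes and does not say which of them changed.

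**Figure D3:**
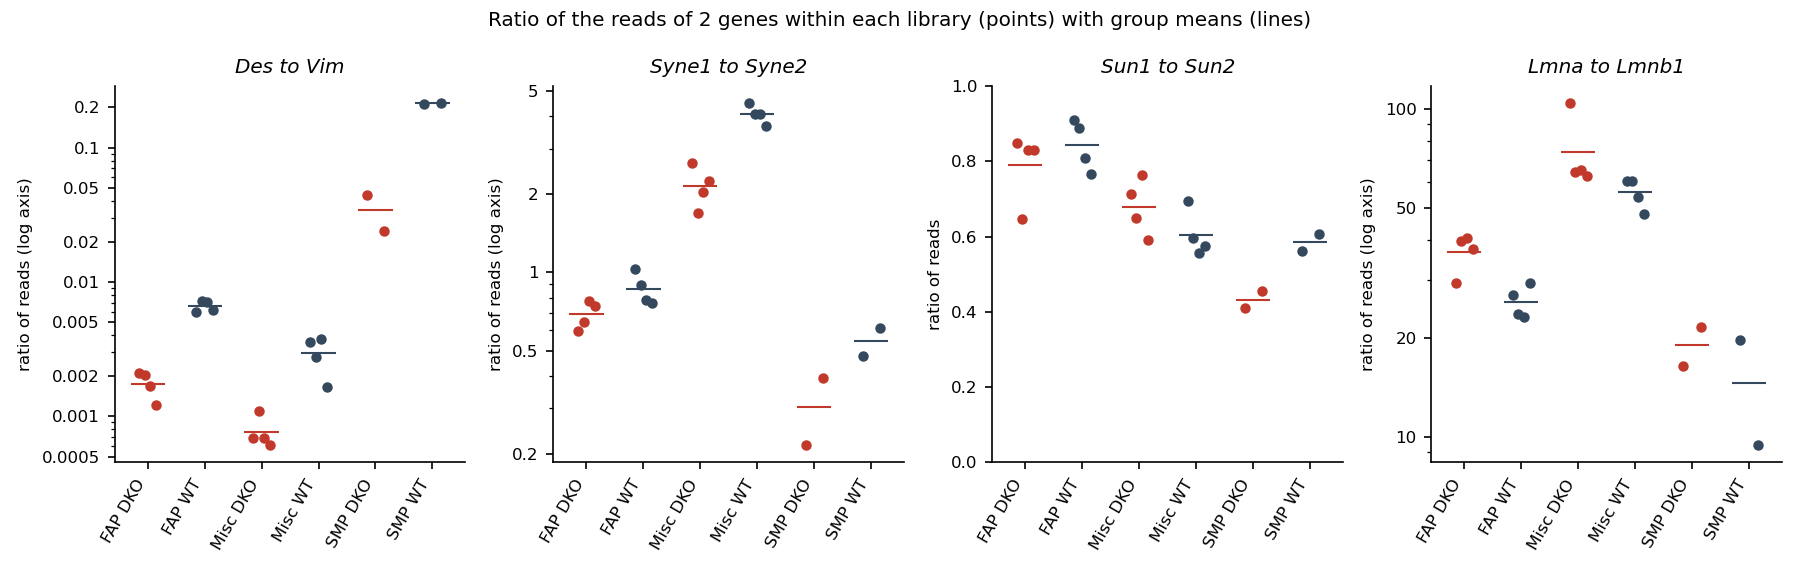
Ratio of the reads of a pair of genes within each library on the vertical axis (log axes except Sun1 to Sun2) for the 6 groups, with 1 point per library (red DKO, blue WT) and a line at the group mean. Des to Vim separates DKO from WT in each population, and Syne1 to Syne2 is above 1 throughout Misc and at most 1.03 elsewhere.

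Des, Nes, Syne2 and Lmnb1 were lower in FAP and in Misc than in SMP, in DKO as in WT, and Synm was higher. FAP against SMP gave 2 higher and 6 lower of the 10 genes in DKO, where 58.8% of all genes were called, and 2 higher and 7 lower in WT, where 62.3% were called. Misc against SMP gave 2 higher and 6 lower in DKO, where 59.5% were called, and 3 higher and 4 lower in WT, where 60.6% were called. With most genes of the table called in these comparisons, such counts say little about the 10. In size, Des stood out, at log2 values of −5.28 ± 0.22 for Misc over SMP in DKO and −5.47 ± 0.18 in WT, with FAP over SMP at −3.85 ± 0.19 in DKO and −3.49 ± 0.16 in WT. Nes followed, with FAP over SMP at −3.56 ± 0.22 in DKO and −3.99 ± 0.22 in WT. Synm ran the other way, with Misc over SMP at 1.39 ± 0.19 in DKO and 2.47 ± 0.19 in WT. Lmnb1 was lower in Misc than in SMP at −2.46 ± 0.22 in DKO and −2.36 ± 0.21 in WT, and Syne2 at −2.08 ± 0.21 in DKO and −2.44 ± 0.21 in WT. Each of these 12 values had an adjusted p of 1.2e-06 or less. For Syne2, FAP over SMP was −0.99 ± 0.21 in DKO and −1.09 ± 0.21 in WT, and the first was lost without SMP DKO library 1, at −0.44 (adjusted p = 0.098), and the second with the length offset, at −0.21 (adjusted p = 0.16). Beside these, the 12 cell cycle genes summed to 22.5 to 33.5 CPM in Misc DKO and 7.65 to 11.0 CPM in Misc WT, against 460 and 330 CPM in SMP DKO and 106 and 282 CPM in SMP WT, and their part in the Lmnb1 difference was not tested. Lmna was lower in FAP than in SMP by −0.74 ± 0.12 in DKO (adjusted p = 8.4e-06) and by −0.32 ± 0.12 in WT (adjusted p = 0.023), and the WT call was lost without FAP WT library 2 (0.053), SMP WT library 1 (0.15) or SMP WT library 2 (0.06).

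Vim and Syne1 stood closer between SMP and the other populations, and several of their calls depended on genotype or processing. Vim was higher in FAP than in SMP by 0.40 ± 0.13 in DKO (adjusted p = 0.01) and by 1.52 ± 0.14 in WT (adjusted p = 1.2e-09). The DKO call was lost with the length offset, at 0.26 (adjusted p = 0.082). The DKO value was 0.22 without SMP DKO library 1 and 0.64 without SMP DKO library 2. Misc over SMP for Vim was 0.13 (95% interval −0.12 to 0.38) in DKO and 0.67 (0.42 to 0.93) in WT. Without SMP DKO library 2 the DKO value was 0.37, and without SMP DKO library 1 it was −0.05. Syne1 was highest in Misc, with Misc over SMP at 0.86 ± 0.16 in DKO (adjusted p = 8.6e-05) and 0.51 ± 0.15 in WT (adjusted p = 0.0051), the WT call being lost without SMP WT library 2, at 0.42 (adjusted p = 0.083). Its FAP over SMP value was 0.32 ± 0.16 in DKO (adjusted p = 0.092) and −0.40 ± 0.15 in WT (adjusted p = 0.022). With the length offset the WT value turned to 0.61 (adjusted p = 0.00057), and it did not pass without FAP WT library 3, at −0.37 (adjusted p = 0.051), or SMP WT library 1, at −0.28 (adjusted p = 0.23). The direction of Syne1 between FAP and SMP in WT was thus not settled by these data.

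FAP against Misc gave 4 higher and 3 lower of the 10 in DKO, where 29.7% of all genes were called, and 4 higher and 3 lower in WT, where 36.9% were called. Des was higher in FAP by 1.43 ± 0.26 in DKO (adjusted p = 9.8e-05) and by 1.99 ± 0.17 in WT (adjusted p = 1.2e-09). Syne2 was higher in FAP by 1.09 ± 0.18 in DKO and 1.34 ± 0.18 in WT, and Lmnb1 by 0.77 ± 0.20 in DKO and 1.06 ± 0.19 in WT. Syne1 was lower in FAP by −0.54 ± 0.13 in DKO and by −0.91 ± 0.12 in WT. Vim was higher in FAP by 0.84 ± 0.10 in WT (adjusted p = 3.9e-07). In DKO the Vim value of 0.27 ± 0.10 lay at the threshold, and it was lost with DESeq2 size factors (adjusted p = 0.053) and without FAP DKO library 2 (0.091), library 3 (0.079) or library 4 (0.15) or Misc DKO library 1 (0.12), library 2 (0.097) or library 3 (0.066). Nes was lower in FAP by −1.06 ± 0.21 in DKO (adjusted p = 0.00034), and by −0.51 ± 0.23 in WT, which did not pass (adjusted p = 0.087). The WT value of Nes passed without FAP WT library 1, at −0.74 (adjusted p = 0.019), or Misc WT library 1, at −0.66 (adjusted p = 0.038). Synm in DKO gave 0.01 (95% interval −0.26 to 0.27) between FAP, at 58.2 to 67.2 CPM, and Misc, at 51.6 to 74.3 CPM. In WT it was lower in FAP by −1.02 ± 0.14 (adjusted p = 1.4e-06). The difference of these Synm values between genotypes is the called interaction of 1.03 given above. Sun2 was lowest in FAP. FAP over SMP for Sun2 was −0.83 ± 0.12 in DKO (adjusted p = 1.8e-06) and −0.39 ± 0.12 in WT (adjusted p = 0.0054), the WT call being lost without SMP WT library 1 (0.053). FAP over Misc for Sun2 was −0.32 ± 0.10 in DKO (adjusted p = 0.015) and −0.33 ± 0.10 in WT (adjusted p = 0.0085), and the DKO call was lost without FAP DKO library 1 (0.069) or Misc DKO library 4 (0.1). Sun1 was called in no comparison of populations, and neighbouring groups overlapped all along its order of group means.

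**Figure D4:**
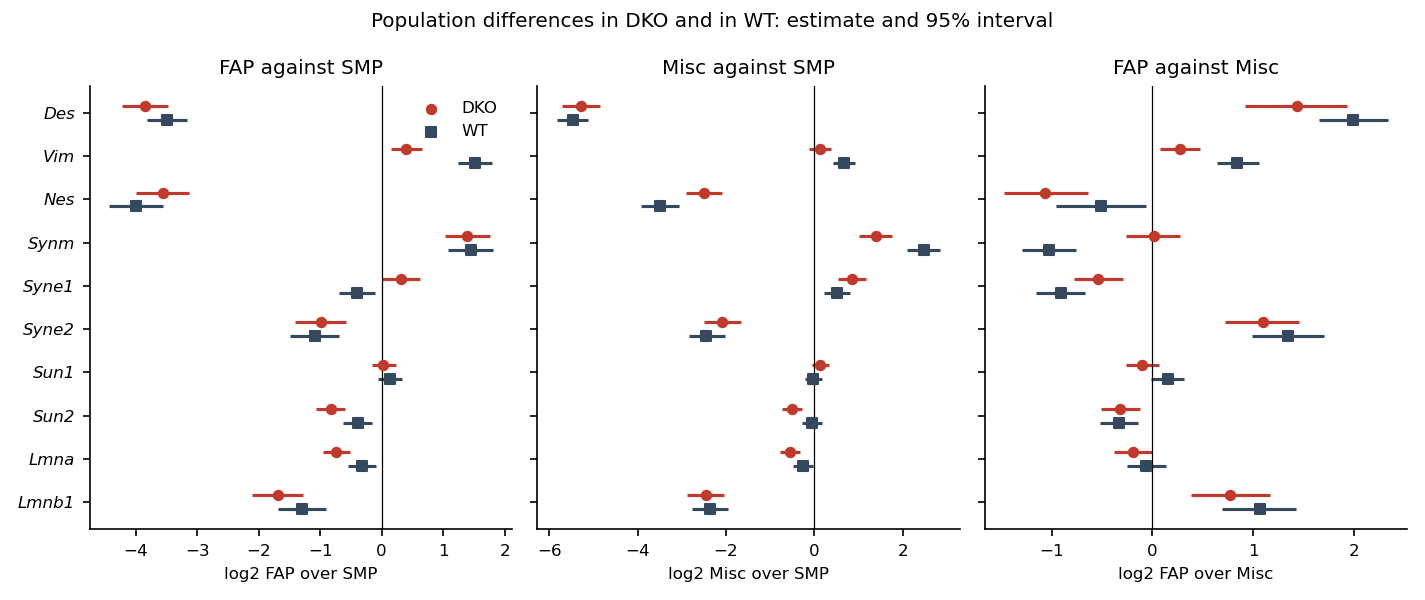
Log2 difference between populations on the horizontal axis (FAP over SMP, Misc over SMP, FAP over Misc) for each gene, with red circles for DKO, blue squares for WT and bars for 95% intervals. Des and Nes lie farthest left of 0 against SMP, Sun1 lies near 0 in all 3 panels, and Synm in FAP over Misc lies at 0.01 in DKO and −1.02 in WT.

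Of 67 further genes of the same structures listed by role, 55 could be tested. In DKO against WT, 4 of the 55 were called in FAP, 12 in Misc and 11 in SMP, against 10.7%, 18.7% and 23.0% of all genes, and the median log2 changes of the 55 were −0.03, 0.07 and 0.09. Among 5 tested other intermediate filament genes, 1 fell in FAP, 1 rose and 1 fell in Misc, and 1 rose in SMP. Prph, for the neuronal filament protein peripherin, was at 107 ± 22.3 CPM in Misc DKO and 33.5 ± 5.91 CPM in Misc WT (SD, n = 4 each), at 1.67 ± 0.19 (adjusted p = 2.9e-06). Sync, for the muscle filament protein syncoilin, was the gene that fell, and it was named after its values were seen, since its mean lay under 5 CPM. It was at 1.55 ± 0.580 CPM in Misc DKO and 3.50 ± 0.965 CPM in Misc WT, at −1.20 ± 0.29 (adjusted p = 0.005). In FAP it was at 1.58 ± 0.463 CPM in DKO and 2.98 ± 0.742 CPM in WT, at −0.89 ± 0.29 (adjusted p = 0.048). The FAP call was lost with no filter on low counts (adjusted p = 0.058) and without FAP DKO library 2 (0.13), library 3 (0.13) or library 4 (0.11) or FAP WT library 1 (0.15), library 3 (0.066) or library 4 (0.12). In SMP the called gene was Bfsp1, for a filament protein known from the eye lens, at 1.75 ± 1.72 CPM in DKO and 0.169 ± 0.00933 CPM in WT (SD, n = 2 each; adjusted p = 0.014). The log2 change of Bfsp1 was 3.24 ± 0.91. Its call was lost without SMP DKO library 2, at 1.57, SMP WT library 1, at 3.18, or SMP WT library 2, at 3.27. Of 18 linkers and chaperones, 2 fell in FAP, 3 rose and 2 fell in Misc, and 3 rose and 1 fell in SMP. Hspb8, a small heat shock protein that works with Bag3 in clearing damaged proteins, was at 169 ± 5.72 CPM in SMP DKO and 27.1 ± 2.25 CPM in SMP WT (SD, n = 2 each), at 2.64 ± 0.19 (adjusted p = 6.7e-09). Its Misc level was 59.8 ± 12.1 CPM in DKO and 36.9 ± 4.09 CPM in WT, at 0.69 ± 0.13 (adjusted p = 0.00049). Beside the SMP value of Hspb8, the 16 muscle fibre markers summed to 350.0 and 760 CPM in SMP DKO and 132 and 163 CPM in SMP WT, with 12 called higher, and their part was not tested. Bag3 was the gene that fell in SMP, at 1750 ± 115 CPM in DKO and 2730 ± 341 CPM in WT. Its log2 change was −0.64 ± 0.20 (adjusted p = 0.023), a call lost when only the SMP libraries entered the fit (adjusted p = 0.053). It was −0.59 without SMP DKO library 1 and −0.51 without SMP WT library 1. Ppl, for the filament linker periplakin, fell in Misc, at 23.8 ± 2.49 CPM in DKO and 43.3 ± 7.87 CPM in WT, by 0.86 on the log2 scale (adjusted p = 0.00046). In FAP it was at 79.6 ± 19.8 CPM in DKO and 118 ± 14.1 CPM in WT, at −0.57 ± 0.15 (adjusted p = 0.012), a call lost without FAP DKO library 4 (adjusted p = 0.052).

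Among 21 tested other genes of the nuclear envelope complex and lamina, 2 rose and 1 fell in Misc, where 18.7% of all genes were called. In SMP 3 of the 21 rose, where 23.0% of all genes were called. In FAP, where 10.7% of all genes were called, edgeR called 0 of the 21. There 7 had an unadjusted p under 0.05 and the DESeq2 Wald test called 2. Lmnb2, for lamin B2, was at 13.6 ± 2.09 CPM in Misc DKO and 8.75 ± 1.74 CPM in Misc WT, at 0.64 ± 0.17 (adjusted p = 0.0081). Syne3, for nesprin 3, which binds plectin and through it intermediate filaments, was at 19.2 ± 4.17 CPM in Misc DKO and 28.7 ± 5.14 CPM in Misc WT, at −0.58 ± 0.15 (adjusted p = 0.0092). Tmem43, which encodes the inner nuclear membrane protein LUMA, was at 99.8 ± 2.49 CPM in SMP DKO and 55.4 ± 0.929 CPM in SMP WT, at 0.85 ± 0.11 (adjusted p = 2e-05). Of 11 actin and microtubule partners of nesprins, 1 rose in FAP, 1 rose and 1 fell in Misc, and 1 rose and 2 fell in SMP, against the same shares of all genes. Pcm1, a centrosome protein that also gathers at the nuclear surface of muscle cells, was at 100.4 ± 11.0 CPM in SMP DKO and 178 ± 2.91 CPM in SMP WT, at −0.82 ± 0.14 (adjusted p = 0.00022). Klc2, a kinesin light chain, was at 8.30 ± 1.86 CPM in FAP DKO and 4.84 ± 0.756 CPM in FAP WT, at 0.77 ± 0.18 (adjusted p = 0.006).

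Likeness of pattern over the 20 libraries was described by Pearson's r of log2 CPM, which mostly follows population because libraries of a population share their cell type. Among the 10 genes, Des and Lmnb1 had the highest r at 0.92, Syne2 and Lmnb1 came next at 0.89, and Des and Synm were the most opposed, at −0.90 like Synm and Lmnb1. The 2 nesprins ran against each other, at −0.56. Over all genes tested, Des was most like Fry (r = 0.968), Dtx4 (0.965) and Kcnn3 (0.964), Nes most like Lmnb2 (0.974), Pkp4 (0.971) and Cobl (0.970), and Vim most like Degs1 (0.954), Anxa1 (0.949) and Got1 (0.946). Synm was most like Dact3 (0.956), Syne1 like Hmox2 (0.917), Syne2 like Kdm7a (0.973), Sun2 like Atxn2l (0.894), Lmna like Phf5a (0.931) and Lmnb1 like Sms (0.951). Sun1, with its narrow range, reached no more than 0.737, with Rbfox3, a gene at a mean of 0.291 CPM.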

How the data were processed

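The authors deposited raw read counts per gene for 20 RNA-seq libraries, with 5826000 to 17730111 counts per library. Reads were aligned to mm10 with OSA and the RefSeq annotation, per the labels' series design text. DESeq2 is named in the submitters' processing notes. The counting tool and the use of strand are not stated, so a gene and an overlapping antisense gene cannot be told apart. Of 24393 genes, 24312 matched RefSeq by Entrez identifier, 52 blank or date-like symbols were restored from that identifier, and 5031 had no count in any library.

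Libraries were grouped by the labels' population and genotype. Counts were tested with edgeR 4.0.16 (R 4.3.3, limma 3.58.1) by TMM scaling, filterByExpr (minimum count 10, minimum total 15, 14179 genes kept) and the robust quasi-likelihood test, with 1 fit over 6 groups and no block. Adjusted p is Benjamini-Hochberg over all genes tested, and a call is an adjusted p below 0.05. SE is the log2 change over the square root of F. Likeness used log2 CPM with a prior count of 2. The 10 genes and the lists were chosen with earlier results of these data known. The further genes named were drawn from those called in DKO against WT with a mean of at least 5 CPM, at most the 4 of largest change per role and comparison, and the genes most like a member are among the 3 of highest r. The steps were tested on simulated counts.

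As alternatives the fit was run with size factors from DESeq2 1.42.0, without the filter and with only the compared groups, and the Wald test of DESeq2 was run on the same genes. Others were a replicate block, an offset for transcript length, block and offset together, and leaving out each library in turn. Lengths come from the longest protein-coding GENCODE M21 transcript, found for 13666 (96.4%) of the genes tested. FAP and Misc libraries of 1 genotype with the same number deviated together, at r = 0.22 to 0.41 in DKO and 0.21 to 0.29 in WT, against −0.23 to 0.09 and −0.22 to 0.06 for other numbers. No label states this pairing. A block of genotype and number together was therefore added for the differences of DKO changes, after seeing the data. SMP libraries showed no such link, so for SMP a block rests on the numbers alone. With FAP, r for the same number was −0.23 to −0.07 in DKO, against −0.13 to 0.23 for other numbers. In WT it was 0.03 to 0.07 against −0.12 to 0.12. With Misc it was −0.1 to −0.09 against −0.01 to 0.1 in DKO, and −0.04 to 0.04 against −0.18 to 0.18 in WT.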

Additional observations from a re-analysis of the deposited data

Results flagged for a closer look

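In 40 groups of 4 libraries, 1 library stood far from the other 3 of its group by Dixon's criterion, for Lmna in Misc WT, where library 3 was at 393 CPM and the other 3 at 343 to 349 CPM. Chance alone marks about 1 in 20 such groups.

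In 6 of 30 tests of members, the DKO change differed between a pair of populations. Of all genes tested, 2.79% were called between FAP and Misc, 10.3% between FAP and SMP and 8.94% between Misc and SMP. Between FAP and Misc the members called were Vim, at −0.57 (adjusted p = 0.031), and Synm, at 1.03 (adjusted p = 0.0029). Between FAP and SMP they were Vim, at −1.12 (adjusted p = 3e-04), and Syne1, at 0.72 (adjusted p = 0.037). Between Misc and SMP they were Nes, at 0.99 (adjusted p = 0.049), and Synm, at −1.09 (adjusted p = 0.0083). All 6 are log2 differences with edgeR's quasi-likelihood test and Benjamini-Hochberg adjustment. They share libraries, and they are not 6 independent findings.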

How the results depend on the processing

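Of 1870 values of the 10 genes under alternatives, 1691 kept their direction and their side of the threshold, 80 lost and 39 gained a call, and 60 changed direction. Of 360 values of the role genes named, 292 kept both and 68 lost the call. The reasons for these shifts were not tested.

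Among log2 values, those below changed direction. Syne2 in FAP (0.01) was 0.0 with the replicate block, −0.01 with the length offset and −0.01 with both. Syne2 in SMP (−0.09) was 0.41 with the length offset, with or without the block. Synm for FAP over Misc in DKO (0.01) was −0.04 with the offset and −0.03 with block and offset. Sun1 for FAP over SMP in DKO (0.03) was −0.02 with DESeq2 size factors, −0.03 with the block, −0.01 with the offset or the DESeq2 Wald test, and −0.06 with block and offset. Vim for Misc over SMP in DKO (0.13) was −0.02 with the offset and −0.09 with block and offset. Syne1 for FAP over SMP in WT (−0.40) was 0.61 and 0.67. Sun1 for Misc over SMP in WT (−0.02) was 0.04 without the filter, 0.0 with the block, 0.01 with the offset and 0.04 with block and offset. For differences of DKO changes, Syne2 between FAP and SMP (0.10) was −0.42 and Syne1 between Misc and SMP (0.34) was −0.09, with the offset and with block and offset.

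With 1 library left out, the ranges of values that crossed 0 were, for DKO over WT, −0.06 to 0.09 for Syne2 in FAP, −0.63 to 0.28 for Syne2 in SMP, −0.17 to 0.04 for Lmnb1 in Misc and −0.39 to 0.60 for Lmnb1 in SMP. Between populations they were −0.08 to 0.10 for Synm (FAP over Misc, DKO), −0.02 to 0.08 for Sun1 (FAP over SMP, DKO), −0.05 to 0.37 for Vim (Misc over SMP, DKO), and −0.05 to 0.05 for Sun1 and −0.14 to 0.04 for Sun2 (Misc over SMP, WT). For differences of DKO changes they were −0.06 to 0.12 for Sun2 between FAP and Misc. Between FAP and SMP they were −0.29 to 0.25 for Synm, −0.27 to 0.64 for Syne2 and −0.95 to 0.04 for Lmnb1. Between Misc and SMP they were −0.01 to 0.47 for Des, −0.02 to 0.90 for Syne2 and −0.67 to 0.32 for Lmnb1.

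Counts of calls moved as follows. In FAP the 4 calls of the wider list were 9 with only the compared groups, 7 with the offset, 8 by the DESeq2 Wald test and 1 to 5 with 1 library left out. The 2 member calls were then 1 to 3, and the 1520 calls over all genes 932 to 1696, with 932 without FAP DKO library 2 and 997 without FAP WT library 1. In SMP only the compared groups gave 4 calls of the wider list in place of 11 and 924 over all genes in place of 3257. Leaving out 1 library gave 5 to 14 and 1821 to 2830, with 1821 without SMP WT library 1. For differences of DKO changes, the 2 member calls between FAP and Misc were 1 without the filter and 1 to 2 with 1 library left out. The 2 between FAP and SMP were 1 with the offset, with block and offset and with the block within genotype, and 1 to 3 with 1 library left out, where the 1465 calls over all genes were 777 to 1783. The 2 between Misc and SMP were 1 with DESeq2 size factors, 1 with the replicate block and 0 to 3 with 1 library left out. The 1268 calls over all genes there were 800 with only the compared groups and 782 to 1583 with 1 library left out. The 777 and 782 are without SMP WT library 1. Where 1 library left SMP with a lone DKO or WT library, it was assumed to vary like the other groups.

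Among calls on the 10 genes, the replicate block ended that of Nes between Misc and SMP (0.99, adjusted p = 0.068), as did other settings. The block within genotype ended the Syne1 call between FAP and SMP. That block let Vim between Misc and SMP pass, as did the DESeq2 Wald test and block and offset together. SMP had 2 libraries a genotype, those of SMP DKO had the lowest depth, and Des in Misc DKO rested on 11 to 19 reads a library.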
